A study of Mus musculus with 4 samples.

Results

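The JAK kinases and STAT factors described here are 9 genes, the transcription factor genes Stat2, Stat3, Stat4, Stat5a, Stat5b and Stat6 and the kinase genes Jak1, Jak2 and Jak3. They were taken by symbol from a table of 22083 genes, and all 9 were present and passed the filter on low values. Other genes of both families are not analysed here. RNA had been sequenced from group 2 innate lymphoid cells (ILC2s), tissue-resident lymphocytes without antigen receptors, of wild-type C57BL/6 mice aged 9 weeks. ILC2s sorted from small intestinal lamina propria (SI-ILC2s) and from the white fat of the mesentery (WAT-ILC2s) gave 2 libraries each. The sources used here give no sort markers and do not say whether separate mice were used for the libraries of a tissue, and the tests can therefore speak only of the spread between libraries, which could be technical. Levels are in RPKM, reads scaled to gene length and sequencing depth, so levels of different genes can be compared per length.

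Cytokine receptors of many kinds have no enzyme of their own and carry JAK kinases on their inner tails. When a cytokine joins the receptor chains, the JAKs phosphorylate each other and the receptor, a STAT protein docks and is phosphorylated in turn, and STAT dimers enter the nucleus and switch on genes. Which JAK and which STAT take part depends on the receptor. In ILC2s, interleukin-7 and interleukin-2 signal through JAK1, JAK3 and STAT5, and interleukin-4 and interleukin-13 signal through STAT6. STAT3 is best known downstream of gp130 receptors and the interleukin-10 and interleukin-22 receptors, STAT4 downstream of interleukin-12, and STAT2 downstream of type I interferons.

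The members did not move together. Stat3, Stat5a, Stat5b and Jak2 were higher in SI-ILC2s, Jak1 was higher in WAT-ILC2s, and Stat2, Stat4, Stat6 and Jak3 did not pass the test (limma on log2(RPKM + 1), Benjamini-Hochberg adjusted p below 0.05 over all 8230 tested genes). The largest difference was that of Stat3, at 3.88 times its WAT-ILC2 level, and the other called members differed by 1.54 to 2.04 times. Calls were common in this comparison: 47.5% of all tested genes were called, 17.9% toward SI-ILC2s and 29.6% toward WAT-ILC2s, beside 5 of 9 members, 4 and 1 in those directions. The median difference of the 9 members, SI-ILC2 minus WAT-ILC2, was 0.30 on the log2 scale, beside -0.15 for all tested genes. Both libraries of a tissue lay above both of the other for 8 members, with SI-ILC2s above for 5 and WAT-ILC2s above for 3, beside 29.8% and 45.9% of all tested genes. The smallest two-sided p that an exact permutation of 2 against 2 libraries allows is 0.33, so single values below rest on the fit across all genes.

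**Figure D1:**
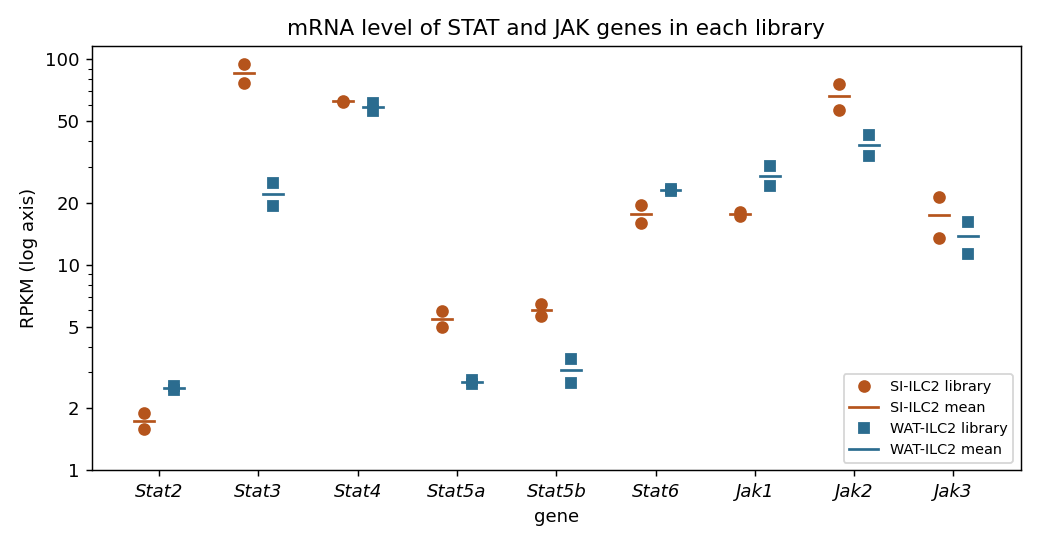
RPKM (log axis) of each of the 9 genes in each of the 4 libraries, with circles for SI-ILC2 libraries, squares for WAT-ILC2 libraries and short lines for the means of 2 libraries. The Stat3 points of the tissues stand farthest apart, at 77.02 and 94.8 RPKM against 19.3 and 25.01, and the Jak3 points overlap.

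The steps between low values of single-exon genes put the depth at 55800000 to 76400000 reads per library. Column sums ranged from 136705 to 158718 RPKM, and rescaling matters for small differences: the median difference of all tested genes was 0.0015 after median-of-ratios scaling, -0.03 after quantile normalization and -0.26 after rescaling to equal sums. Of the ILC2 markers, all 14 were tested, and 5 were called toward SI-ILC2s and 4 toward WAT-ILC2s. Gata3, the transcription factor of the lineage, had 338 to 397 RPKM in the 4 libraries. Il17rb was at 164.2 and 140.5 RPKM in the SI-ILC2 libraries against 14.3 and 10.3 in the WAT-ILC2 libraries, and Il1rl1 at 14.3 and 15.4 against 65.7 and 63.4. Of 79 markers of 12 kinds of other cells, 52 stayed below 1 RPKM in every library, among them Cd4, Cd8a, Pax5 and Adipoq. Of 21 tested, 3 were called toward SI-ILC2s and 15 toward WAT-ILC2s, beside 17.9% and 29.6% of all tested genes. Some reached the filter of 1 RPKM only in the libraries of a single tissue and could be called only toward it. They included Dcn, Fabp4 and Cpa3 in WAT-ILC2s and Il22 in SI-ILC2s. The summed level of 6 red cell genes was 13.2 to 41.6 RPKM in SI-ILC2s and 88.9 to 139.8 in WAT-ILC2s. That of 7 fibroblast genes was 1.17 to 1.53 and 4.85 to 10.2. That of 6 genes of ILC3s, another innate lymphoid subset, was 3.29 to 4.88 and 1.46 to 1.52. These 6 did not all go the same way, with Il22 at 1.76 and 3.50 against 0.065 and 0.014 and Lta at 0.380 and 0.182 against 1.17 and 0.979. The summed level of 9 T cell genes was 7.56 to 9.01 and 15.2 to 24.98 RPKM, with Cd3g at 7.07 and 4.94 against 21.2 and 10.8. Cd3e overlapped, at 1.19 and 1.48 against 1.81 and 1.39. The summed level of 5 B and plasma cell genes was 13.4 to 17.7 and 2.61 to 3.14 RPKM. Of these, Cd79b was at 17.3 and 13.1 against 2.59 and 2.36, and the other 4 stayed below 1 RPKM in every library. The called markers of other cells thus differed with the tissue, mostly toward WAT-ILC2s, and their part in the differences of the members was not tested. In RNA from sorted cells, more cells of a type and more RNA per cell cannot be told apart, and neither can an effect of the isolation from each tissue and a difference of the ILC2s themselves.

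Stat3, which encodes the STAT used by gp130 and interleukin-10 family receptors, was at 77.02 and 94.8 RPKM in SI-ILC2 replicates 1 and 2 and at 19.3 and 25.01 in WAT-ILC2 replicates 1 and 2. Both SI-ILC2 libraries were more than 3 times as high as either WAT-ILC2 library. The difference was 1.91 ± 0.19 (SE) on the log2 scale, with a 95% confidence interval of 1.46 to 2.36 (limma, adjusted p = 0.000782). Only 103 of the 8230 tested genes, 1.25%, had a higher difference toward SI-ILC2s. The level of Stat3 was above that of 96.8% of tested genes in SI-ILC2s and of 88.8% in WAT-ILC2s. An estimated 10237 to 56058 reads stood behind each value at the length of its annotated exons. The call held in all 13 alternatives run, with a difference between 1.73 and 2.10.

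Stat5a and Stat5b encode a pair of very similar STAT proteins that act downstream of interleukin-2, interleukin-7 and TSLP. Stat5a was at 4.98 and 5.96 RPKM in the SI-ILC2 libraries against 2.63 and 2.74 in the WAT-ILC2 libraries. Stat5b was at 5.64 and 6.41 RPKM in the SI-ILC2 libraries against 2.66 and 3.46 in the WAT-ILC2 libraries. For both genes each SI-ILC2 library was above each WAT-ILC2 library, and the differences were nearly equal, at 0.81 ± 0.15 (SE, adjusted p = 0.00647) for Stat5a and 0.80 ± 0.16 (SE, adjusted p = 0.00947) for Stat5b by limma. Their 95% confidence intervals, 0.45 to 1.17 and 0.40 to 1.19, lay below that of Stat3. The ratio of Stat5b to Stat5a was 1.13 and 1.08 in SI-ILC2s, against 1.01 and 1.26 in WAT-ILC2s, and these ranges overlap. Of all 50-base words in their annotated transcripts, 8.21% of those of Stat5a and 10.98% of those of Stat5b occur in both genes, so a part of their reads may have been assigned to the wrong copy or left out. No other member shared such a word with another. Both calls held in every alternative in which the gene was tested, and Stat5a fell under a filter of 5 RPKM in 2 libraries.

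The 3 STAT genes higher in SI-ILC2s are neighbours on chromosome 11 (GRCm38, GENCODE M21). Stat5b lies on the minus strand at chr11:100780731-100850724, Stat5a on the plus strand at chr11:100859351-100885169 and Stat3 on the minus strand at chr11:100885098-100939540. Stat5b and Stat5a start 8.63 kb apart and run away from each other, and the 3′ ends of Stat5a and Stat3 overlap by 72 bases on opposite strands. The overlap is 1.01% of the exonic bases of Stat5a and 0.756% of those of Stat3. The sources used here do not say whether reads were counted by strand, so reads in these bases may count for either gene. The whole cluster spans 158.8 kb.

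Within 250 kb of either end the table held 23 other genes, of which 10 were tested. None of these was called higher in SI-ILC2s by limma and 5 were called higher in WAT-ILC2s, beside 17.9% and 29.6% of all tested genes. Their median difference was -0.41. Nkiras2 and Rab5c were at 0.41 and 0.27 and did not pass the test (limma, adjusted p = 0.114 and 0.682). The 3 called genes on the Stat3 side were Naglu, Coasy and Mlx, at -0.84, -0.77 and -0.71, and those on the Stat5b side were Ghdc and Cnp, at -0.50 and -0.83. The nearest tested gene beside Stat5b was Ghdc, at 0.519 and 0.773 RPKM in the SI-ILC2 libraries against 1.51 and 1.13 in the WAT-ILC2 libraries. Ghdc and Coasy passed the filter only through the WAT-ILC2 libraries, so they could be called only toward WAT-ILC2s. At an unadjusted p below 0.05 none of the 10 was higher in SI-ILC2s either. The window and the genes in it were chosen after the values were seen, and the difference between the cluster and its neighbours was not tested.

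**Figure D2:**
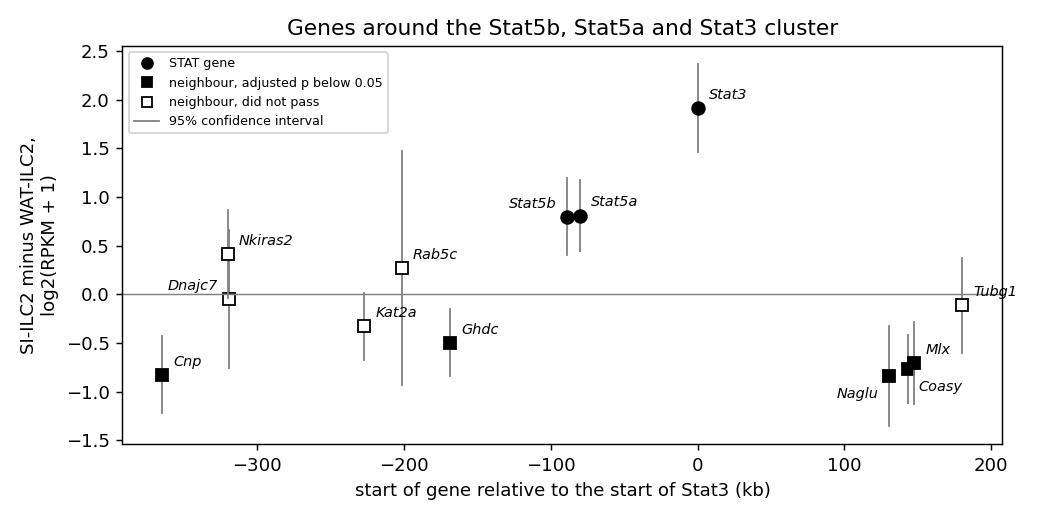
Difference between SI-ILC2s and WAT-ILC2s on the log2(RPKM + 1) scale (vertical axis, bars for 95% confidence intervals) against the start of each tested gene relative to the start of Stat3 in kb (horizontal axis), with circles for the STAT genes and squares for neighbours, filled where the adjusted p was below 0.05. The 3 STAT genes lie at 0.80 to 1.91 and the 5 filled neighbours between -0.84 and -0.50.

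The sequences before the starts of Stat3, Stat5b and Jak2 are shown because these genes were higher in SI-ILC2s on separate promoters. They are the bases of the RefSeq (GRCm38.p6) promoter windows that lie ahead of the first annotated exon base. They are written 5′ to 3′ on the strand of the gene, with GC boxes (GGGCGG on either strand) in capitals. The sequence of Jak2 stops short of the first annotated base of the gene, chr19:29251828. The window of Stat5a begins on an annotated exon base, so none of it is shown. The positions are chr11:100939541-100939790 (minus strand) for Stat3, chr11:100850725-100850831 (minus strand) for Stat5b and chr19:29251553-29251802 (plus strand) for Jak2.
Stat3: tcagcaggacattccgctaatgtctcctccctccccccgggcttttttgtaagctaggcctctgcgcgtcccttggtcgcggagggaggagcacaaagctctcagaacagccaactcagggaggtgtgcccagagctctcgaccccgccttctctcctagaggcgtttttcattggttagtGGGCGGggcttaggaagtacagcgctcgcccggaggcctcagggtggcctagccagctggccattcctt
Stat5b: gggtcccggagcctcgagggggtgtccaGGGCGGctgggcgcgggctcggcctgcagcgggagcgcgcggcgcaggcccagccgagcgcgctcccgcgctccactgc
Jak2: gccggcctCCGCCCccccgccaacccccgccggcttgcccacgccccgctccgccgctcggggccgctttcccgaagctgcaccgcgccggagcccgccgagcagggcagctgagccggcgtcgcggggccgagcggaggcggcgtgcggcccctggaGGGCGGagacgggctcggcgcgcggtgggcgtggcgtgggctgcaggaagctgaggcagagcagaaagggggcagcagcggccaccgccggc
In the 250 bases before the start, the GC share was 60.8% for Stat3, 57.6% for Stat5a, 82% for Stat5b and 80.8% for Jak2. A GC box was found in 6 of the 9 members' windows, beside 33.0% of 27025 promoters of the same length. It occurred 3 times before Stat5b, 2 times before Jak2, 1 time before Stat3 and not before Stat5a. Of the 3 before the RefSeq start of Stat5b, 2 lie after the first annotated exon base and so are not in the sequence shown. The palindromic STAT motif TTCNNNGAA was in none of the 9 windows, beside 7.14% of all promoters. The same half-sites with 1 more base between them, and a pair of GAAA half-sites 2 bases apart as in interferon response elements (either strand), were each found in 1 member, Stat2 for both, beside 5.88% and 3.04% of all promoters. These are matches of letters in short windows and say nothing of binding.

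Stat4, which encodes the STAT of interleukin-12 signalling, was the most abundant member in WAT-ILC2s. It was at 63.04 and 62.2 RPKM in the SI-ILC2 libraries against 56.3 and 61.01 in the WAT-ILC2 libraries. Its 4 values lay within a narrow range, although both SI-ILC2 libraries were above both WAT-ILC2 libraries. The difference was 0.09 with a 95% confidence interval of -0.25 to 0.43 (limma, adjusted p = 0.604), so a change of more than 0.43 toward either tissue lies outside the interval. It was -0.058 after rescaling to equal sums. Of its annotated exonic bases 26.7% also belong to Gm28177, a gene on the same strand, so these reads cannot be assigned with certainty.

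Stat6 and Stat2 both lie on chromosome 10, with 609.6 kb between them, and both missed the threshold with higher values in WAT-ILC2s. Stat6, the STAT of interleukin-4 and interleukin-13 receptors, was at 15.98 and 19.6 RPKM in the SI-ILC2 libraries against 22.8 and 23.5 in the WAT-ILC2 libraries. Stat2, a part of the interferon-activated complex with IRF9, was the lowest member at 1.59 and 1.90 RPKM in the SI-ILC2 libraries against 2.47 and 2.57 in the WAT-ILC2 libraries. For both genes the WAT-ILC2 libraries lay above the SI-ILC2 libraries. The differences were -0.37 (95% confidence interval -0.74 to -0.0023) for Stat6 and -0.36 (-0.70 to -0.03) for Stat2, with adjusted p-values of 0.0878 and 0.071 by limma. The intervals are not adjusted for the number of genes. Both passed the threshold after rescaling to equal sums, with adjusted p-values of 0.0425 and 0.0402, where the median of all genes also lay lower. The ratio of Stat6 to Stat2 was 10.1 and 10.3 in SI-ILC2s, against 9.22 and 9.12 in WAT-ILC2s.

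Among the kinases, Jak1 and Jak2 differed in opposite directions. Jak2, used by receptors of GM-CSF, interleukin-3 and interleukin-5 and by those of interferon-gamma and interleukin-12, was at 56.9 and 76.1 RPKM in the SI-ILC2 libraries against 33.8 and 42.9 in the WAT-ILC2 libraries. Its libraries did not overlap, and the difference was 0.77 ± 0.20 (SE, limma adjusted p = 0.0215). Without SI-ILC2 replicate 2 it was 0.57 and the call was lost (adjusted p = 0.131), as it was after rescaling to equal sums (0.62, adjusted p = 0.0561). Jak1, shared by the common gamma chain, gp130, interferon and interleukin-10 receptor families, was at 17.4 and 18.04 RPKM in the SI-ILC2 libraries against 24.2 and 30.2 in the WAT-ILC2 libraries. Its libraries did not overlap either, and the difference was -0.58 ± 0.16 (SE, limma adjusted p = 0.0244). The Jak1 call was less stable than that of Stat3 and was lost in 5 of 13 alternatives, with adjusted p-values of 0.132 without SI-ILC2 replicate 1, 0.0917 without SI-ILC2 replicate 2, 0.0938 without WAT-ILC2 replicate 2, 0.0723 after median-of-ratios scaling and 0.0518 without a filter. Its direction was the same in all 13.

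Jak3, the kinase that binds the common gamma chain, was at 13.5 and 21.4 RPKM in the SI-ILC2 libraries against 11.3 and 16.2 in the WAT-ILC2 libraries. The tissues overlapped, and replicate 2 was the higher library in both. The difference was 0.30 with a 95% confidence interval of -0.32 to 0.93 (limma, adjusted p = 0.361). It was -0.0093 without SI-ILC2 replicate 2 and 0.55 without WAT-ILC2 replicate 2, where it passed the threshold (adjusted p = 0.0322). Of the exonic bases of Jak3, 7.55% also belong to Insl3, on the same strand.

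**Figure D3:**
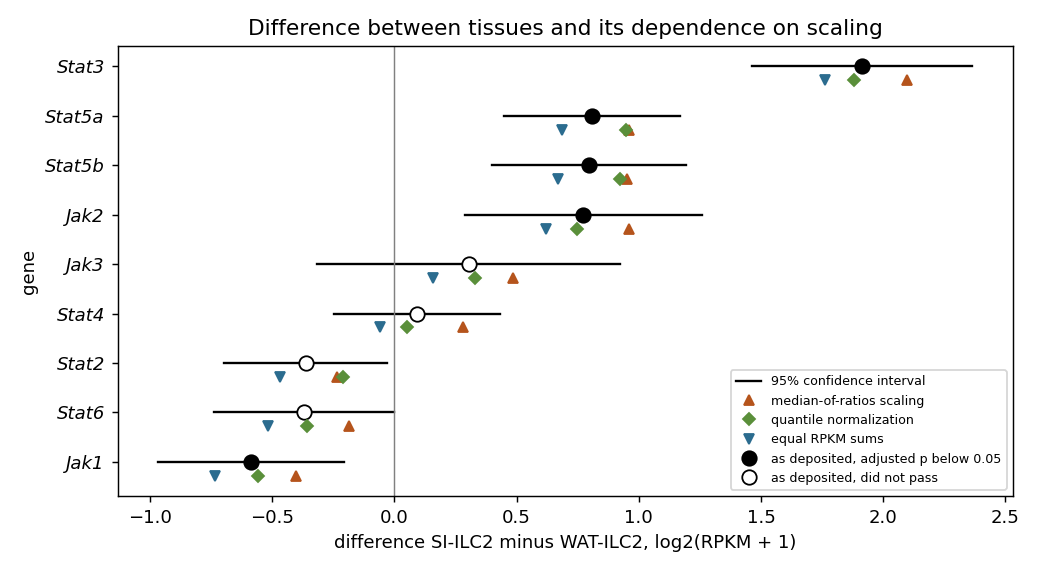
Difference between SI-ILC2s and WAT-ILC2s of each gene on the log2(RPKM + 1) scale, with 95% confidence intervals of the values as deposited (circles, filled where the adjusted p was below 0.05) and the value after each of 3 other scalings (coloured symbols). Stat3 lies farthest to the right at 1.91 and Jak1 farthest to the left at -0.58, and the Stat4 symbols fall on both sides of 0.

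Shares within a library do not depend on how libraries are scaled to each other. Of the summed RPKM of the 6 STAT genes, Stat3 made up 45.8% and 49.7% in the SI-ILC2 libraries and 18.2% and 21.1% in the WAT-ILC2 libraries. Stat4 made up 37.5% and 32.6% in SI-ILC2s, against 53.05% and 51.6% in WAT-ILC2s, and Stat6 9.50% and 10.2% against 21.5% and 19.8%. Stat3 was thus the largest share in both SI-ILC2 libraries and Stat4 in both WAT-ILC2 libraries. The ratio of Stat3 to Stat6 was 4.82 and 4.85 in SI-ILC2s, against 0.845 and 1.06 in WAT-ILC2s. Stat5a and Stat5b together with Stat2 were minor in each library, with no single share above 3.36%.

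The summed level of the 6 STAT genes was 168.2 and 190.8 RPKM in the SI-ILC2 libraries against 106.1 and 118.3 in the WAT-ILC2 libraries. That of the 3 JAK genes was 87.7 and 115.5 RPKM in SI-ILC2s, against 69.3 and 89.4 in WAT-ILC2s, and these overlapped. Among them, Jak2 made up 64.9% and 65.9% in SI-ILC2s, against 48.8% and 47.99% in WAT-ILC2s. Jak1 made up 19.8% and 15.6% against 34.8% and 33.8%, and the Jak3 shares, 15.4% and 18.5% against 16.3% and 18.2%, overlapped between tissues. The ratio of Jak2 to Jak1 was 3.28 and 4.22 in SI-ILC2s, against 1.40 and 1.42 in WAT-ILC2s.

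**Figure D4:**
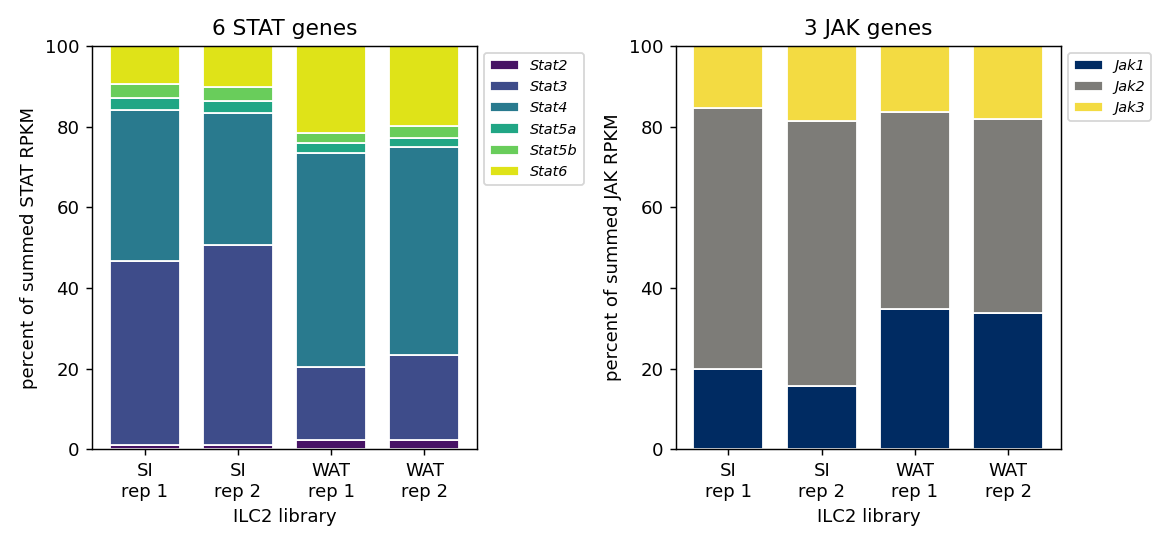
Share of each gene in the summed RPKM of the 6 STAT genes (left) and of the 3 JAK genes (right), in percent, with a stacked bar for each library. Stat3 takes 45.8% and 49.7% of the STAT bars in SI-ILC2s against 18.2% and 21.1% in WAT-ILC2s, and Jak1 takes 19.8% and 15.6% of the JAK bars against 34.8% and 33.8%.

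In SI-ILC2s the order of the mean levels was Stat3 (85.9 RPKM), Jak2 (66.5), Stat4 (62.6), Stat6 (17.8), Jak1 (17.7), Jak3 (17.4), Stat5b (6.03), Stat5a (5.47) and Stat2 (1.74). The libraries of Jak2 and Stat4 overlapped, as did those of Stat6, Jak1 and Jak3 and those of the pair of STAT5 genes, so these neighbours in the order did not differ beyond their spread. In WAT-ILC2s the order was Stat4 (58.6 RPKM), Jak2 (38.4), Jak1 (27.2), Stat6 (23.1), Stat3 (22.1), Jak3 (13.8), Stat5b (3.06), Stat5a (2.68) and Stat2 (2.52), and the neighbours Stat6 and Stat3 and the STAT5 pair overlapped. By mean level Stat3 was the highest of the 9 in SI-ILC2s and below 4 others in WAT-ILC2s, where its libraries overlapped with those of Stat6 and Jak1.

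The genes with the pattern most like that of Stat3 over the 4 libraries, by Euclidean distance of centred log2(RPKM + 1), were Arap2 (distance 0.11), Epb4.1 (0.13) and Vps54 (0.13). Arap2, which encodes a GTPase-activating protein, was at 13.3 and 16.1 RPKM in the SI-ILC2 libraries against 2.42 and 3.32 in the WAT-ILC2 libraries. Those most like Jak1 were Irf7 (0.02), a transcription factor gene of the interferon response, Jup (0.02) and Tmem159 (0.03). Irf7 was at 8.15 and 8.57 RPKM in the SI-ILC2 libraries against 11.7 and 14.8 in the WAT-ILC2 libraries. With 4 libraries such distances reflect mainly the size of the tissue difference and the order within each pair.

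Around the members, 139 genes in 13 lists covered receptors, ligands, inhibitors, cofactors and targets. A list gene that reached 1 RPKM only in the libraries of a single tissue could be called only toward that tissue. Those named below include Il3, Il21r, Csf2rb2, Socs6 and Gzmb in SI-ILC2s and Il6st and Usp18 in WAT-ILC2s. A value was found for 137 of the 139, and 93 were tested. Of these, 25 (26.9%) were called toward SI-ILC2s and 32 (34.4%) toward WAT-ILC2s, beside 17.9% and 29.6% of all tested genes. Their median difference was -0.17, beside -0.15 for all. Median-of-ratios scaling gave 30 and 22, and equal sums 23 and 35. Without SI-ILC2 replicate 1 the second count fell to 18.

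**Figure D5:**
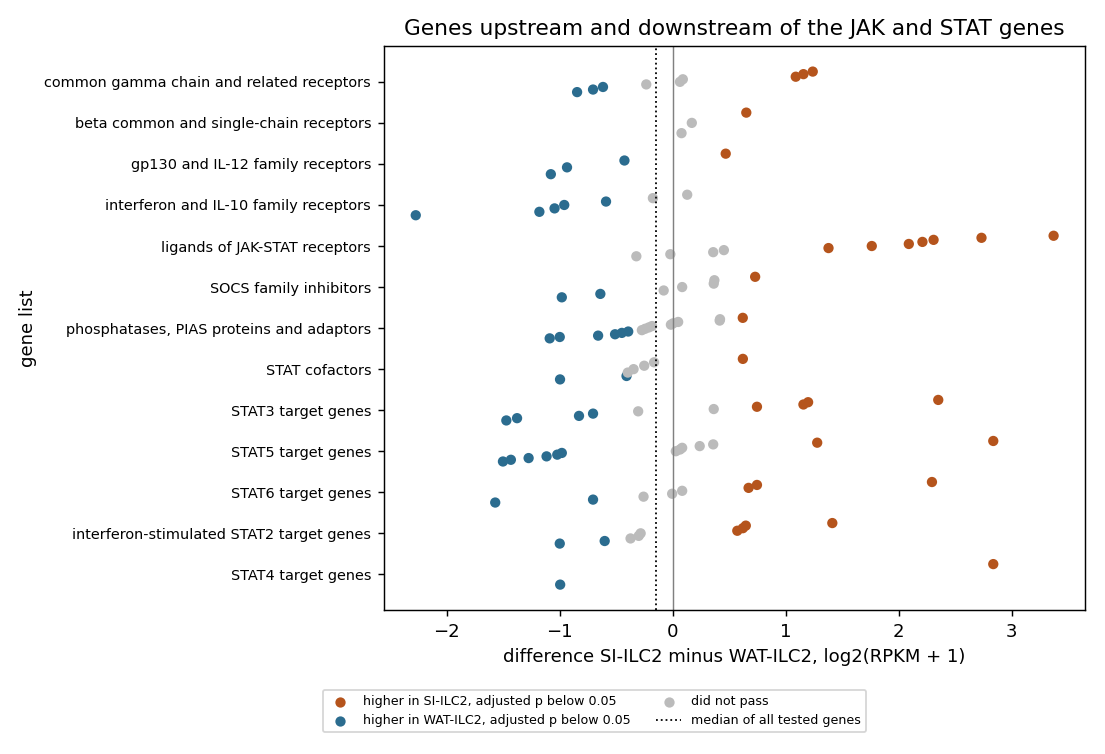
Difference between SI-ILC2s and WAT-ILC2s on the log2(RPKM + 1) scale of each tested gene of the 13 lists, coloured by call, with a dotted line at the median of all tested genes (-0.15). All called ligand genes lie to the right of 0 and all called interferon and interleukin-10 family receptor genes to the left. Genes that passed the filter only through a single tissue can lie only on its side.

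Of the ligand genes, 7 of 11 tested were called toward SI-ILC2s and 0 toward WAT-ILC2s by limma, beside 17.9% and 29.6% of all tested genes. Il2, Il3 and Il22 among the 7 passed the filter only through the SI-ILC2 libraries, so they could be called only in that direction. At an unadjusted p below 0.05 and in the 3 other scalings none was called higher in WAT-ILC2s either. Il6, a gp130 ligand that signals through STAT3, was at 110.3 and 86.5 RPKM in the SI-ILC2 libraries against 24.3 and 16.98 in the WAT-ILC2 libraries. Lif, another gp130 ligand, named after its values were seen, was at 27.9 and 32.8 against 10.1 and 12.03 RPKM. Il3, which signals through JAK2 and STAT5, was at 4.99 and 4.60 against 0.143 and 0.193 RPKM, and Il4, the ligand of the STAT6 pathway, at 37.8 and 24.4 against 2.25 and 1.82. For each of these genes both SI-ILC2 libraries were above both WAT-ILC2 libraries.

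Of 4 tested receptor genes of the gp130 and interleukin-12 families 3 were higher in WAT-ILC2s, or 2 after median-of-ratios scaling or quantile normalization. Of all tested genes 29.6% were called in that direction. Il6st and Il11ra1 among the 3 passed the filter only through the WAT-ILC2 libraries, so they could be called only toward WAT-ILC2s. The remaining one of the 4, Il12rb1, was called toward SI-ILC2s, a call lost after rescaling to equal sums. Il6st, which encodes gp130 itself, was at 0.545 and 0.625 RPKM in the SI-ILC2 libraries against 2.67 and 2.05 in the WAT-ILC2 libraries, and Il6ra, the subunit specific to interleukin-6, stayed below the filter at 0.141 to 0.183 RPKM in the 4 libraries. Il27ra, which pairs with gp130, was at 14.8 and 20.2 against 30.6 and 37.7 RPKM. Of 7 tested interferon and interleukin-10 family receptor genes 5 were higher in WAT-ILC2s and 0 in SI-ILC2s, beside 29.6% and 17.9% of all tested genes. The first count was 4 after median-of-ratios scaling. No member of that list was higher in SI-ILC2s at an unadjusted p below 0.05. They included Il10ra, at 9.71 and 9.77 against 46.9 and 55.2 RPKM, and Ifnar2, at 4.83 and 5.12 against 11.2 and 11.4. Stat3 was thus higher in the tissue in which Il6st and Il10ra, whose proteins signal through it, were lower. Il21r, a receptor gene listed with the common gamma chain and with the STAT3 targets, went the other way. It was called toward SI-ILC2s, at 2.41 and 1.57 RPKM in the SI-ILC2 libraries against 0.263 and 0.391 in the WAT-ILC2 libraries.

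Common gamma chain and related receptors were split, with 3 of 9 tested higher in each tissue, beside 17.9% of all tested genes toward SI-ILC2s and 29.6% toward WAT-ILC2s. The counts toward SI-ILC2s and WAT-ILC2s were 3 and 2 after median-of-ratios scaling. After quantile normalization or rescaling to equal sums they were 2 and 3. Il2rb, the beta chain for interleukin-2 and interleukin-15, was at 101.02 and 145.9 RPKM in the SI-ILC2 libraries against 40.2 and 79.3 in the WAT-ILC2 libraries, and Il15ra at 14.8 and 12.4 against 5.83 and 4.55. Il2rg, the gamma chain that carries JAK3, was at 217.6 and 187.5 against 341 and 282 RPKM, and Il7r, which carries JAK1, at 33.2 and 38.98 against 66.9 and 63.96. Csf2rb2, a beta chain gene for interleukin-3, was the only called gene among 3 tested in the list of beta common and single-chain receptors. It was at 1.70 and 1.33 against 0.609 and 0.578 RPKM. It has a close paralog in Csf2rb, so its reads are uncertain.

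SOCS proteins bind JAKs or receptors and end the signal. Of the SOCS family, 1 of 7 tested was called toward SI-ILC2s and 2 toward WAT-ILC2s, or 2 and 1 after median-of-ratios scaling. The main counts, 14.3% and 28.6%, were near the 17.9% and 29.6% of all tested genes. Socs2 was at 24.7 and 21.99 RPKM in the SI-ILC2 libraries against 44.98 and 48.9 in the WAT-ILC2 libraries, Socs1 at 40.7 and 33.9 against 64.8 and 52.6, and Socs6 at 1.25 and 1.23 against 0.317 and 0.384. Socs3, the STAT3-induced inhibitor of gp130 signalling, was at 2.25 and 3.65 against 1.65 and 2.44 RPKM (limma, adjusted p = 0.217). Cish, a STAT5-induced inhibitor, was the most abundant at 217.4 and 225.3 against 212.1 and 205.1 RPKM (adjusted p = 0.679). Phosphatases, PIAS proteins and adaptors had 1 of 16 called toward SI-ILC2s and 6 toward WAT-ILC2s, or 3 and 3 after median-of-ratios scaling. The main counts were 6.25% and 37.5%, beside the same shares of all tested genes. The 6 were led by Pias2, a SUMO ligase, at 1.78 and 1.90 against 5.29 and 4.80 RPKM. Usp18, a brake on the type I interferon receptor, followed at 0.839 and 0.615 against 2.53 and 2.36.

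Genes known as targets of the STATs were called in both directions. The counts stand beside 17.9% of all tested genes called toward SI-ILC2s and 29.6% toward WAT-ILC2s. Of 10 tested STAT3 targets 4 were higher in each tissue, with a median of 0.03. Tnfrsf1b, a receptor for tumour necrosis factor, was at 32.4 and 33.2 RPKM in the SI-ILC2 libraries against 5.63 and 5.62 in the WAT-ILC2 libraries, and Hif1a at 19.4 and 33.5 against 8.17 and 13.5. Cebpb and Bcl3, transcription regulator genes, were at 38.04 and 53.8 against 113.8 and 142.2 RPKM and at 5.28 and 5.90 against 15.99 and 16.2. Of 13 tested STAT5 targets 2 were called toward SI-ILC2s and 6 toward WAT-ILC2s, beside the higher Stat5a and Stat5b in SI-ILC2s. The 2 were Gzmb, the granzyme B gene, at 6.74 and 6.63 against 0.013 and 0.14 RPKM, and Myc, a growth regulator gene, at 36.02 and 36.4 against 14.2 and 14.5. The 6 included the cyclin gene Ccnd3, at 7.45 and 8.16 against 22.8 and 25.04 RPKM, the kinase gene Pim3, at 30.4 and 33.6 against 81.7 and 75.9, and the survival gene Bcl2l1, at 7.29 and 9.41 against 17.9 and 20.4.

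Of 8 tested STAT6 targets 3 were called toward SI-ILC2s and 2 toward WAT-ILC2s, beside 17.9% and 29.6% of all tested genes. Ccr8, a chemokine receptor gene, was at 454.1 and 435.6 RPKM in the SI-ILC2 libraries against 87.01 and 92.7 in the WAT-ILC2 libraries, and Arg1, the arginase gene, at 60.1 and 52.6 against 192.3 and 148.02. Of 9 tested interferon-stimulated genes 4 were called toward SI-ILC2s and 2 toward WAT-ILC2s, beside the same shares of all tested genes. The second count was 1 after median-of-ratios scaling and 3 after rescaling to equal sums. Irf9, the partner of STAT2, was at 15.3 and 12.3 against 8.88 and 8.23 RPKM, and was called toward SI-ILC2s, unlike Stat2. Of 7 STAT4 targets 2 were tested, and Tbx21 and Ifng, the best known of them, stayed at or below 0.25 RPKM in all 4 libraries, beside 56.3 to 63.04 RPKM of Stat4 itself. The 2 tested were Gzmb, called toward SI-ILC2s, and Il18rap, a subunit of the interleukin-18 receptor, at 7.37 and 7.26 against 15.8 and 15.3 RPKM and called toward WAT-ILC2s. These lists came from general knowledge of other cells, and many of their genes answer to other signals as well.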

How the data were processed

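The authors deposited 1 table of RPKM values with a column per library, so replicates were kept apart. Per the submitters' processing notes, the tools were STAR 2.6.0 and featureCounts 1.6.0, on mouse build GRCm38 (mm10). The sources used here do not state the annotation, the strand setting or how reads with several matches were counted. Sample titles gave the groups and replicate numbers. A count test does not suit RPKM. The 8230 genes that reached 1 RPKM in 2 or more libraries were transformed to log2(RPKM + 1) and compared, SI-ILC2 minus WAT-ILC2, with limma 3.58.1 in R 4.3.3 (variance trend, no covariate, 6.39 total degrees of freedom), with Benjamini-Hochberg adjustment over all of them and a threshold of 0.05. Depth was estimated in single-exon genes with 2.5 to 15.5 reads, where 79.3% to 81.9% of values lay within 0.1 of a whole read, against 20% by chance. Where the best depth was also explained by its even multiples, the lower was taken. Gene lengths, overlaps and positions came from GENCODE M21, in which 21016 symbols matched a single gene, and reads per gene are approximate because the authors' annotation may differ. Promoter windows came from RefSeq, GRCm38.p6, with the most 5′ start of each gene. Members and lists were chosen with earlier results of these data known. List genes open to naming were the called genes with the largest differences, up to 4 per direction and list, of which the text gives examples, beside defining genes of each pathway (Il6ra, Socs3, Cish, Tbx21 and Ifng) and Lif, chosen after their values were seen. Alternatives were 2 other pseudocounts, 2 other filters, 3 scalings, no variance trend, the replicate block and leaving out each library. Figures used matplotlib 3.10.9 in Python 3.11.15.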

Additional observations from a re-analysis of the deposited data

How the results depend on the processing

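The estimated reads behind a member's value ranged from 674 to 56058, and each tissue had 2 libraries. Stat3, Stat5a and Stat5b kept their calls in every alternative in which they were tested. The number of members higher in WAT-ILC2s, 1 as reported, was 0 without a filter on low values, 0 after median-of-ratios scaling and 3 after rescaling to equal sums. Leaving out a library gave 0 to 1 such members and 3 to 5 higher in SI-ILC2s, and 21 to 26 pathway genes higher in SI-ILC2s and 18 to 29 in WAT-ILC2s. The fit without 1 library assumes that the lone library of its tissue varies like the other tissue. The difference turned for Stat4 after rescaling to equal sums (-0.058) and for Jak3 without SI-ILC2 replicate 2, with a range of -0.0093 to 0.62 over the libraries left out. The share of Jak2 in SI-ILC2s, 65.4%, was 64.4% with 1 added to each RPKM. Apart from the fewer samples in some fits, the cause was not tested. No label says that a replicate number marks a shared mouse or day. Across tested genes, the difference between replicates 1 and 2 in SI-ILC2s correlated with that in WAT-ILC2s at 0.57, which with 2 pairs does not show pairing. With the replicate number as a block, 3 members were higher in WAT-ILC2s (Jak1, Stat6 and Stat2), Jak3 was called higher in SI-ILC2s (adjusted p = 0.00554), and calls over all genes rose from 1470 and 2436 to 2271 and 3430.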
